A study of Mus musculus with 6 samples.

Results

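The genes described here are 9 genes of the contractile apparatus of smooth muscle, namely Acta2, Actg2, Lmod1, Myh11, Myl9, Mylk, Cnn1, Tagln and Des. They were chosen by name as rows of the deposited count table, which holds 38561 genes, with earlier results of these data known. The source was the vomeronasal organ of males of the outbred CD-1 stock, and RNA was pulled down from its lysates by an antibody that binds ribosomal protein S6 in its phosphorylated form. Per the labels 3 libraries come from males exposed to pups and 3 from a control exposure, which they do not describe. They state no age, duration or number of animals behind a library. The comparison asked which RNAs of the precipitate differ once males have met pups.

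The vomeronasal organ is a blind tube in the nasal septum, and a large blood vessel with smooth muscle in its wall runs along it. Sympathetic nerves make this muscle contract, the vessel empties, the lumen widens and fluid carrying pheromones is drawn in, an action known as the vascular pump. In smooth muscle, myosin light chain kinase phosphorylates the regulatory light chain of myosin, and the myosin then pulls on actin filaments anchored in dense bodies. Many genes of this apparatus are switched on by serum response factor (SRF) bound to a short DNA element called the CArG box, together with its coactivator myocardin.

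Vessel muscle is not the only cell that makes these proteins. Pericytes and the myoepithelial cells of glands express several of them, and striated muscle shares Des, so the counts are given for the whole tissue. In such bulk samples fewer cells of a type and less RNA per cell cannot be told apart. The precipitate is meant to hold RNA on ribosomes with phosphorylated S6, and the RNA it carries as background was not measured here.

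Promoter sequences were taken from RefSeq (GRCm38.p6) and matched for Acta2, Cnn1, Des, Lmod1, Myl9 and Mylk, 6 of the 9 genes. The 250 bases before each start were searched on both strands for the CArG box, which reads the same way on either strand. An exact match was found in 1 of 6 promoters, that of Myl9, and in 1.47% of all 32851 promoters of that length. Matches with exactly 1 of the 6 inner bases other than A or T lay in Acta2 and Myl9, 2 of 6 promoters, against 7.24% of all promoters. Cnn1, Lmod1 and Mylk, like Des, had neither kind of match in the window searched, so the lack of one did not set Des apart. The Mylk window begins at chr16:34784700, inside the gene, which starts at 34745210. Sequence before that first start of Mylk was not searched. Sequence beyond these 250 bases was not searched. The sequences printed are the upstream stretch of Myl9 that holds both of its matches (chr2:156775214-156775419, plus strand), the pair of matches before Acta2 (chr19:34255438-34255467 and chr19:34255388-34255417, minus strand) and, because it was the member nearest to 0, the stretch before Des (chr1:75360042-75360291, plus strand). Capitals mark the matches, which are exact at the first of Myl9 and off by 1 inner base elsewhere. GENCODE M21 annotates exon sequence over both Acta2 sites, so only 30 bases of each are given.
Myl9: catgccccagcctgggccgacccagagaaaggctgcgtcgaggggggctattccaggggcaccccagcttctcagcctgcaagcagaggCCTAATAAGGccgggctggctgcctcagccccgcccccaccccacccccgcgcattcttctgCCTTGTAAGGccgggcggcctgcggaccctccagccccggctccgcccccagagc
Acta2, upstream site: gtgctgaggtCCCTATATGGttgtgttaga
Acta2, site nearer the start: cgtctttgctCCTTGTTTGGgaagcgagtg
Des: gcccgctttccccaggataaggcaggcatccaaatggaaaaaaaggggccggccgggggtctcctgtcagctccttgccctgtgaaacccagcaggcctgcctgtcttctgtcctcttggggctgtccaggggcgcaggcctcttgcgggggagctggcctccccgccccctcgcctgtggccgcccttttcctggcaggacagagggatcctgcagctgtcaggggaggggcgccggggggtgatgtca

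Depth was separated by group, at 10590716 to 11240065 counts in the control and 18199476 to 20871266 in the pup libraries. Of all genes 15498 passed the filter on low counts. The tissue label was checked on 6 markers of vomeronasal neurons, all of which passed the filter, with a median log2 fold change of 0.63 and 1 gene, the channel Ano2 (1.07, SE 0.36, edgeR adjusted p = 0.421), at an unadjusted p under 0.05. Of all genes tested 6.31% were higher after pup exposure at that unadjusted p. Omp, the olfactory marker protein of mature sensory neurons, lay between 664 and 922 CPM in the 6 libraries. CPM here means counts relative to library size, as usually defined, after scaling by the trimmed mean of M-values (TMM).

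Smooth muscle RNA was readily counted in the precipitate. The 9 genes together held 14383 to 50657 counts per library, and 8 of them passed the filter, Des being the exception. Their part of all counts was 0.325%, 0.225% and 0.136% in the control and 0.206%, 0.248% and 0.211% in the pup libraries. The means were 0.229% ± 0.0948 and 0.222% ± 0.0232 (SD, n = 3 each), and the groups overlapped (exact permutation test, two-sided, p = 0.8, where 3 against 3 libraries cannot give less than 0.1). The difference of -0.0070 percentage points was 0.041 without control replicate 1 and 0.00099 without pup replicate 1. Relative to counts outside the 50 most abundant genes the means were 0.542% ± 0.0993 and 0.473% ± 0.0419, a difference of -0.069 percentage points (exact permutation test, two-sided, p = 0.4).

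None of the members passed the test between exposures. In edgeR's quasi-likelihood test 0 of 8 were past an adjusted p of 0.05, where 0.0% of all genes tested were, and 0 of 8 had an unadjusted p under 0.05. At that unadjusted p 6.31% of all genes tested were higher and 4.67% lower after pup exposure. DESeq2 and limma-voom called 0 members as well. The log2 fold change of pup over control exposure was negative for 6 of the 8 (48.5% of all genes tested) and its median was -0.44, beside 0.030 over all genes tested. That median was -0.15 without control replicate 1 and -0.75 without pup replicate 3.

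**Figure D1:**
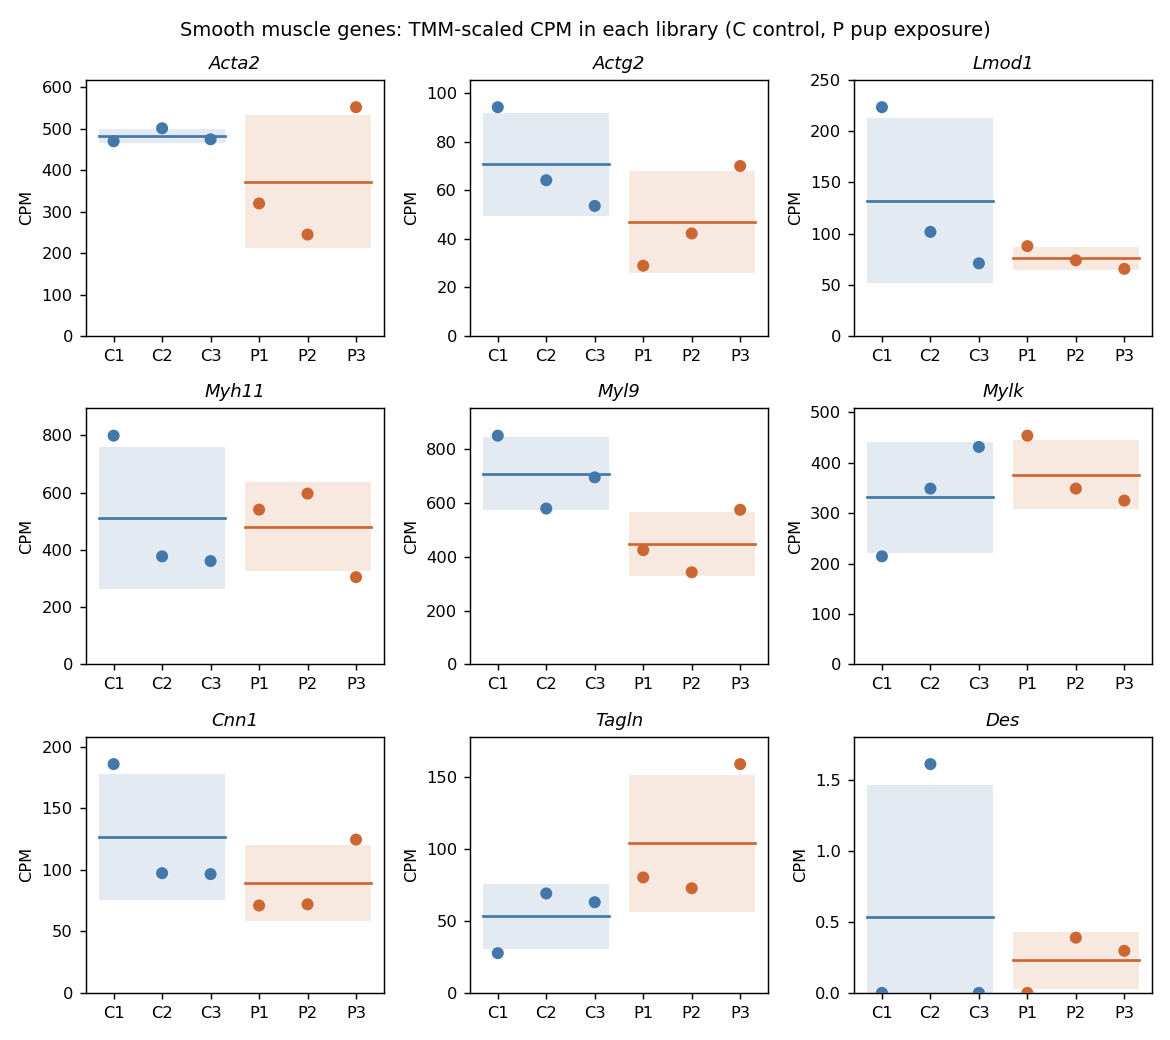
TMM-scaled CPM of the 9 smooth muscle genes, with 1 point per library, blue for control exposure (C1 to C3) and orange for pup exposure (P1 to P3); lines are group means and shading is 1 SD, cut at 0. Only Myl9 and Tagln have groups that do not overlap, in opposite directions, and Des does not exceed 1.61 CPM in any library.

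Of the thin filament genes, Acta2 encodes the smooth muscle alpha actin, the usual marker of vessel muscle. It stood at 470, 501 and 475 CPM in the control and 320, 245 and 552 CPM in the pup libraries. The control libraries lay close together, while the pup libraries ranged from the lowest value to the highest, so the groups overlapped. The log2 fold change of Acta2 was -0.37 (SE 0.42, edgeR adjusted p = 0.744), with a 95% interval from -1.28 to 0.53. Acta2 (ENSMUSG00000035783) lies on chromosome 19 from 34241090 to 34255590, minus strand (GRCm38).

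Actg2, the gamma actin typical of visceral muscle, was lower in level. It had 94.3, 64.2 and 53.6 CPM in the control and 29.0, 42.3 and 70.1 CPM in the pup libraries. Pup replicate 3 lay above control replicates 2 and 3, and the other pup libraries lay below all controls. Its log2 fold change was -0.59 (SE 0.42, edgeR adjusted p = 0.596; 95% interval -1.49 to 0.32). Actg2 (ENSMUSG00000059430) lies on chromosome 6 from 83512905 to 83536265, minus strand. The actins are close relatives in protein sequence. Even so, none of the 50-base words of the longest Actg2 transcript occurred in the longest transcript of another gene. Of the words of Acta2 0.352% did, and shorter transcripts of other genes were not searched.

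Lmod1 encodes leiomodin, which starts new actin filaments in smooth muscle. It had 223, 102 and 70.9 CPM in the control and 87.8, 74.0 and 65.6 CPM in the pup libraries. Control replicate 1 was far above the rest, and the other 5 libraries lay within 65.6 to 102 CPM. Its log2 fold change, -0.80 (SE 0.45, edgeR adjusted p = 0.518), was the most negative of the 8 and was -0.19 without control replicate 1. Lmod1 (ENSMUSG00000048096) lies on chromosome 1 from 135324807 to 135368065, plus strand.

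Of the thick filament genes, Myh11 encodes the smooth muscle myosin heavy chain. It had 798, 377 and 361 CPM in the control and 540, 596 and 305 CPM in the pup libraries. The highest and the lowest library were control replicate 1 and pup replicate 3, and the groups were interleaved. For Myh11 the log2 fold change was -0.092 (SE 0.46, edgeR adjusted p = 0.952; 95% interval -1.09 to 0.91). Its sign depended on the scaling and on single libraries, being 0.14 with library totals only, 0.38 without control replicate 1 and 0.14 without pup replicate 3. With library totals only the median of all genes tested was 0.31, so Myh11 stayed below it. Myh11 (ENSMUSG00000018830) lies on chromosome 16 from 14194535 to 14291372, minus strand.

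Myl9, the regulatory light chain that the kinase phosphorylates, had 851, 580 and 696 CPM in the control and 425, 343 and 576 CPM in the pup libraries. Every pup library lay below every control library, by a narrow margin between pup replicate 3 and control replicate 2. It was the 1 of 8 members with that order, a pattern shown by 9.6% of all genes tested. The fold of the means was 0.632, and the log2 fold change -0.66 (SE 0.40, edgeR adjusted p = 0.543; 95% interval -1.54 to 0.21) missed the threshold. Myl9 (ENSMUSG00000067818) lies on chromosome 2 from 156775420 to 156781658, plus strand.

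Mylk, the myosin light chain kinase, ran the other way from Myl9 in several libraries. It had 214, 349 and 432 CPM in the control and 454, 349 and 325 CPM in the pup libraries. Control replicate 1, which was highest for Myl9, Myh11 and Lmod1, was lowest for Mylk. With a log2 fold change of 0.18 (SE 0.41, edgeR adjusted p = 0.884; 95% interval -0.70 to 1.07), it was at -0.049 without control replicate 1. Mylk (ENSMUSG00000022836) lies on chromosome 16 from 34745210 to 35002420, plus strand.

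Among the proteins bound to the thin filament, Cnn1 encodes calponin, which restrains the actin-myosin interaction. It had 186, 97.2 and 96.4 CPM in the control and 70.9, 71.9 and 124 CPM in the pup libraries. In each group 1 library stood above a close pair, namely control replicate 1 and pup replicate 3. Cnn1 had a log2 fold change of -0.51 (SE 0.42, edgeR adjusted p = 0.645; 95% interval -1.41 to 0.40), and -0.11 without control replicate 1. It (ENSMUSG00000001349) lies on chromosome 9 from 22099216 to 22109630, plus strand.

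Tagln encodes transgelin, also called SM22 alpha, an actin-binding protein that appears early in smooth muscle. It had 27.7, 69.2 and 63.1 CPM in the control and 80.4, 72.9 and 159 CPM in the pup libraries. Every pup library lay above every control library, which was so for 1 of 8 members and for 10.1% of all genes tested. Group means were 53.3 ± 22.4 and 104 ± 47.9 CPM (SD, n = 3 each), with a ratio of 1.95, and the log2 fold change of 0.97 (SE 0.46) had an unadjusted p of 0.057 and an edgeR adjusted p of 0.463, with a 95% interval from -0.034 to 1.97. It was 0.66 without control replicate 1 and 0.54 without pup replicate 3. Tagln (ENSMUSG00000032085) lies on chromosome 9 from 45929619 to 45936058, minus strand.

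The count of Tagln is less certain than the others. In GENCODE M21 an antisense gene, Gm48529, covers 62.4% of the exon bases of Tagln on the opposite strand, and Pcsk7 covers 5.43%. Gm48529 has no row in the deposited table, and whether the counting used strand is not given in the sources used here. Reads of Tagln and of an antisense RNA can then not be told apart. Antisense genes cover 5.86% of the exon bases of Des and, in separate stretches, 4.87% and 1.99% of those of Mylk, and the other 6 genes have no such overlap.

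Des (ENSMUSG00000026208, chromosome 1 from 75360329 to 75368579, plus strand) encodes desmin, the intermediate filament protein of muscle. It had 0, 18 and 0 counts in the control and 0, 11 and 6 in the pup libraries, or at most 1.61 CPM. A count of 0 allows up to 3 counts, which is 0.235 CPM in control replicate 1, 0.469 CPM in control replicate 3 and 0.161 CPM in pup replicate 1, for counting error only. At this depth no difference between exposures was detectable for Des. Vim, the intermediate filament gene of most mesenchymal cells, had 98.0 to 177 CPM in the same libraries.

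Markers of striated muscle, which share Des, were low too. Of 12 such genes 3 passed the filter, Myh1 and Myh4 had 0 counts in every library, and the list summed to 10.3 to 19.7 CPM after control and 7.91 to 24.3 CPM after pup exposure.

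Per kilobase of the longest annotated transcript the members could be ranked within libraries. Whether that transcript is the one expressed was not checked, and for a gene with a shorter one the level would be higher. Myl9 was the highest in 6 of 6 libraries, with a mean of 513 CPM per kilobase, and Acta2 followed in 6 of 6 with 210. Myh11, at 75.8, was above each of the next genes in 5 of 6 libraries. Tagln (49.4), Cnn1 (45.3), Mylk (45.2) and Actg2 (44.2) changed places from library to library, each pair being in the same order in no more than 4 of 6, so that their order is not beyond the spread. Lmod1 (26.3) was below Cnn1 in all 6 and below Tagln, Mylk and Actg2 in 5 of 6, and Des (0.127) was the lowest in every library. Of the 2 actins, Actg2 was at 0.138 to 0.306 of the level of Acta2 per kilobase over the libraries.

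**Figure D2:**
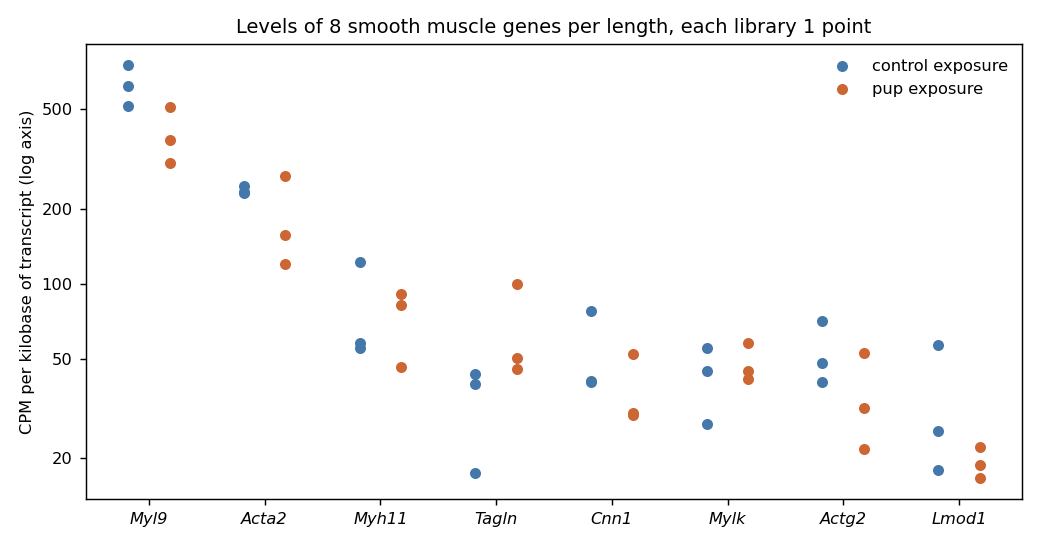
Level of 8 smooth muscle genes in CPM per kilobase of transcript on a log axis, 1 point per library, blue for control and orange for pup exposure (Des, at 0 in 3 libraries, cannot be drawn). Myl9 and Acta2 stand above the others in every library, and Tagln, Cnn1, Mylk and Actg2 share 1 range.

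Shares within the summed counts of the 9 genes do not depend on how libraries are scaled. Myl9 held 29.7%, 27.1% and 31.0% of them after control exposure and 21.2%, 19.1% and 26.4% after pup exposure, without overlap (29.3% ± 1.98 and 22.2% ± 3.78, SD, n = 3 each). Tagln held 0.966%, 3.23% and 2.81% after control and 4.0%, 4.06% and 7.31% after pup exposure, again without overlap (2.34% ± 1.21 and 5.13% ± 1.89). The other 7 shares overlapped. For CPM, groups without overlap were found in 10.1% (pup above) and 9.6% (pup below) of all genes tested.

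The ratio of Tagln to Acta2, each per kilobase, was 0.0751, 0.176 and 0.170 after control exposure and 0.321, 0.380 and 0.368 after pup exposure. The groups did not overlap in 5 of the 28 ratios between tested members, all 5 of them ratios of Tagln, and its ratios to Mylk and Myh11 overlapped. In CPM 10.1% of all genes tested had every pup library above every control library, and 9.6% below. How often ratios of other genes do so was not computed. Tagln to Cnn1 was at 0.222 to 1.06 in the control and 1.51 to 1.91 in the pup libraries, and Tagln to Myl9 at 0.0230 to 0.0844 and 0.134 to 0.196. The ratios to Actg2 and Lmod1 were the other two, that to Lmod1 by a narrow margin between 2.20 in control replicate 3 and 2.27 in pup replicate 1. These 5 share the count of Tagln and its uncertainty. The ratio of Myh11 to Acta2 spread from 0.171 in pup replicate 3 to 0.757 in pup replicate 2, with no order by group.

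**Figure D3:**
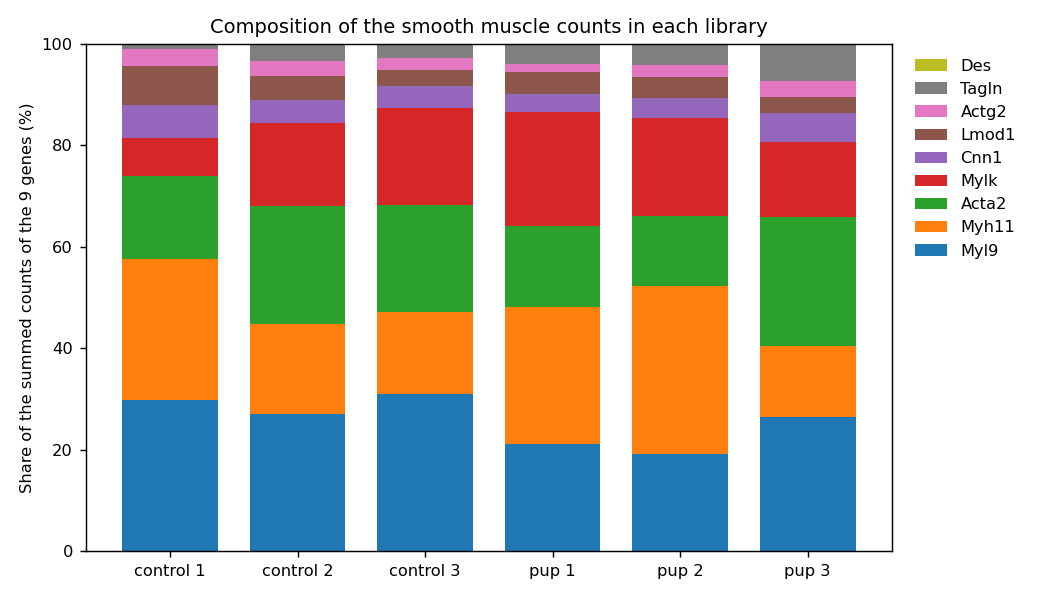
Share of each gene, in percent, in the summed counts of the 9 smooth muscle genes, with 1 stacked bar per library. The Myl9 block (bottom) is smaller in every pup library than in every control library and the Tagln block is larger, while Myh11 runs from 14.0% to 33.2% within the pup exposure group.

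Several members shared the libraries in which they were highest, and others did not. Control replicate 1 was the highest control library for Cnn1, Myh11, Myl9, Lmod1 and Actg2, 5 of 8 members, and the lowest for Acta2, Tagln and Mylk. Pup replicate 3 was the highest pup library for Acta2, Tagln, Cnn1, Myl9 and Actg2, and the lowest for Myh11, Mylk and Lmod1. Cnn1, Myl9 and Actg2 had both features, 3 of 8. Since the pattern in these libraries was read from the members, its share of 9.21% among all genes tested is no test. The same libraries carried the gland secretion gene Bpifb1, singled out after its values were seen, at 2850 and 2093 CPM, while the other 4 had 0.156 to 3.33 CPM. Of the 8 gland markers 4 were highest in both of these libraries within their groups. The most abundant, Obp2a, an odorant-binding protein, was not: it had 114526, 166849 and 430057 CPM in the control and 171491, 67790 and 221566 CPM in the pup libraries, lowest of the controls in replicate 1. The 8 gland markers, all tested, had 1 positive and 0 negative values with an unadjusted p under 0.05, beside 6.31% and 4.67% of all genes tested. Their median log2 fold change was -0.46. They summed to 208445 (control replicate 1) to 717778 CPM after control and 157412 to 379225 CPM after pup exposure. The part of gland tissue in the levels of these genes was not tested. Of the 5 listed markers of myoepithelial and basal cells, Oxtr had 0 to 6 counts a library, and the list summed to 70.3 to 130 CPM after control and 64.4 to 147 CPM after pup exposure.

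Transcript length also moved with the fold change over all genes. Genes whose longest transcript is under 2000 bases had a median log2 fold change of -0.47 (3953 genes), those of 2000 to 4000 bases one of -0.015 (5921 genes), and longer ones one of 0.45 (5434 genes). Myl9 (1128 bases) and Actg2 (1333 bases) are in the short class, where their values of -0.66 and -0.59 lie 0.19 and 0.11 below the class median. Tagln (1595 bases) is short as well, and its value lies 1.44 above that median. Relative to their classes Lmod1 was at -0.79, Myh11 at -0.55, Cnn1 at -0.49, Acta2 at -0.36 and Mylk, whose sign turned, at -0.27. The part of length in these differences was not tested.

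**Figure D4:**
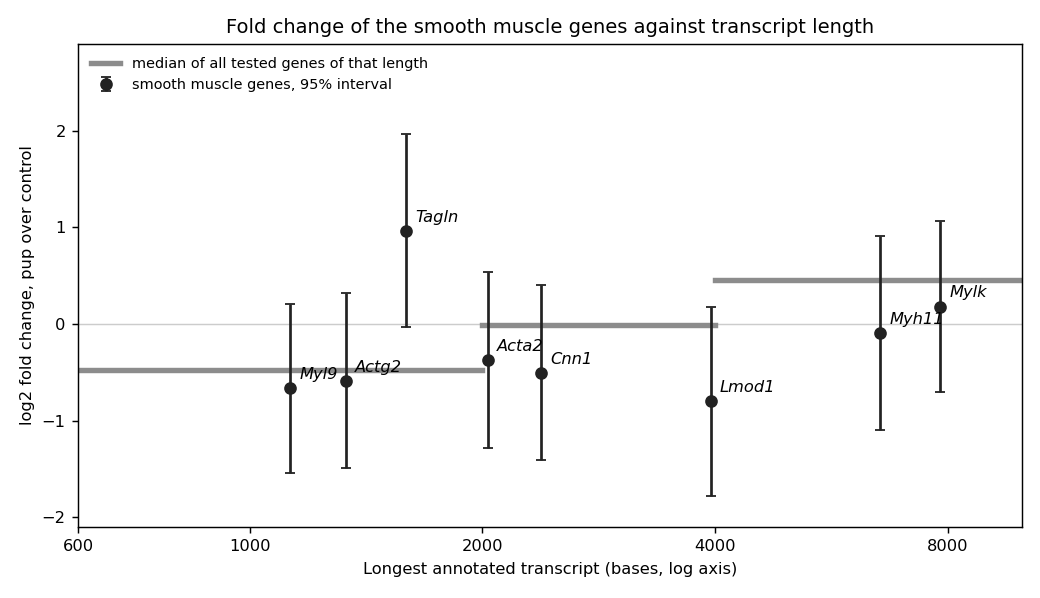
Log2 fold change of pup over control exposure for the 8 tested smooth muscle genes against the length of the longest annotated transcript in bases (log axis), with 95% intervals; grey lines are the medians of all tested genes in 3 length classes. The medians run from -0.47 to 0.45, every interval of a smooth muscle gene includes 0, and Tagln is the farthest from the line of its class.

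Among the transcription factors of smooth muscle genes the lowest unadjusted p belonged to Myocd, which encodes myocardin, the SRF coactivator named above. Myocd had 258, 95.2 and 49.8 CPM in the control and 7.19, 14.8 and 35.7 CPM in the pup libraries, so every pup library was below every control library. Of all genes tested 9.6% were separated in that direction. The means were 134 ± 109 and 19.3 ± 14.8 CPM (SD, n = 3 each). Myocd had a log2 fold change of -2.80 (SE 0.69, unadjusted p = 0.00154), and the edgeR adjusted p of 0.375 did not pass. It was called by DESeq2 (adjusted p = 0.00285) and by unfiltered edgeR (adjusted p = 1.75e-06) and not by limma-voom (0.397), and without control replicate 1 the value was -1.91. Over all alternatives the adjusted p ran from 1.75e-06 to 0.831.

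Within each group of 3 libraries the order for Myocd was that for Cnn1 and Actg2, 2 of 8 members, and for 4.53% of all genes tested. The order was taken from Myocd, itself named for its p, so this comparison tests no link between these genes. Srf itself had 7.60, 6.55 and 5.63 CPM in the control and 9.12, 16.4 and 12.2 CPM in the pup libraries, with no overlap, a log2 fold change of 0.93 (SE 0.45) and an edgeR adjusted p of 0.466. Mrtfb, a related SRF coactivator, had a log2 fold change of 0.49 (SE 0.42). None of the 6 genes of this list passed (0 of 6), and the median was 0.42. Every pup library was above every control library for 1 of the 6 and below for 1, beside 10.1% and 9.6% of all genes tested. Myocd was the 1 with an unadjusted p under 0.05, where 4.67% of all genes tested were lower.

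Receptors, channels and messenger genes of vessel tone numbered 23, of which 17 were tested and 0 passed. An unadjusted p under 0.05 was reached by 2 in the positive and 1 in the negative direction, beside 6.31% and 4.67% of all genes tested. The median log2 fold change was 0.29. Adra1a, an alpha-1 adrenergic receptor through which noradrenaline contracts vessels, had 0.784, 2.15 and 2.19 CPM in the control and 7.77, 9.70 and 4.15 CPM in the pup libraries. These are 10 to 24 counts in control and 84 to 274 in pup libraries, with a log2 fold change of 2.09 (SE 0.68, unadjusted p = 0.00946, edgeR adjusted p = 0.405). The groups did not overlap, and the adjusted p lay between 0.093 and 0.831 over the alternatives. Of the 17 tested, 4 had every pup library above every control library and 2 below, beside 10.1% and 9.6% of all genes tested.

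Kcnmb1, the beta subunit that tunes the large calcium-activated potassium channel of smooth muscle and so favours relaxation, had 43.2, 34.4 and 32.2 CPM in the control and 13.2, 7.12 and 16.0 CPM in the pup libraries. The groups did not overlap, at means of 36.6 ± 5.81 and 12.1 ± 4.55 CPM (SD, n = 3 each), and 9.6% of all genes tested were separated in that direction. Kcnmb1 had a log2 fold change of -1.60 (SE 0.41, unadjusted p = 0.00235, edgeR adjusted p = 0.378). DESeq2 called it (adjusted p = 0.0349), and edgeR without a filter (0.0911) and limma-voom (0.413) did not. Vipr1, a receptor for the relaxing peptide VIP, was at 1.07 (SE 0.46, edgeR adjusted p = 0.447). Chrm2 had 0 counts in every library.

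**Figure D5:**
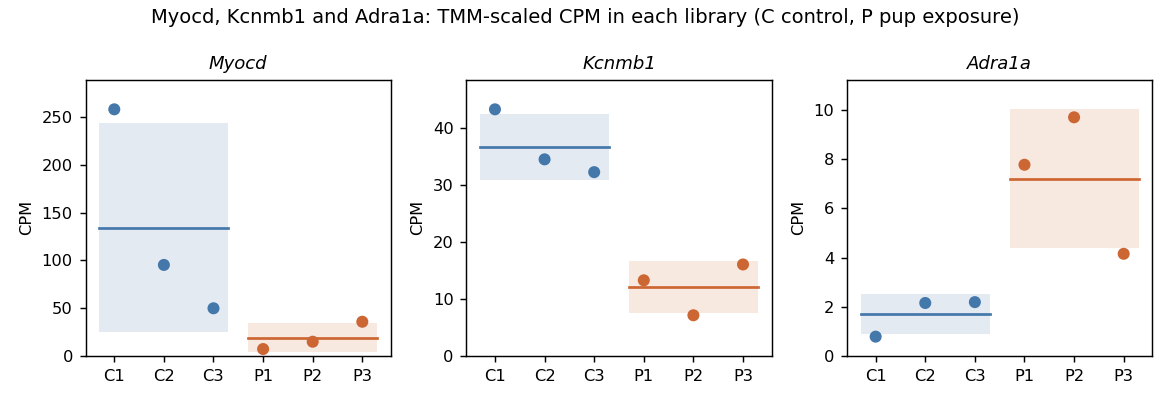
TMM-scaled CPM of Myocd, Kcnmb1 and Adra1a, with 1 point per library, blue for control (C1 to C3) and orange for pup exposure (P1 to P3); lines are group means and shading is 1 SD. Myocd and Kcnmb1 are lower in every pup library than in every control library and Adra1a is higher, while none passes edgeR's adjusted threshold. The genes were named for their small p, and 9.6% (pup below) and 10.1% (pup above) of all genes tested are separated likewise.

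Of 16 further genes of the contractile apparatus 0 passed. An unadjusted p under 0.05 was reached by 2 in the positive and 0 in the negative direction, beside 6.31% and 4.67% of all genes tested. The median log2 fold change was -0.075. Vcl, which encodes the adhesion protein vinculin, was at 1.16 (SE 0.48) and Synm, the intermediate filament protein synemin, at 0.91 (SE 0.42). Synpo2, an actin-bundling protein of muscle, was at 0.85 (SE 0.44). Their edgeR adjusted p values were 0.446 to 0.496, and all 3 are long transcripts of 5267 to 9203 bases.

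The 13 non-muscle relatives of the members, proteins that most cells make, had 0 genes past the threshold, 0 at an unadjusted p under 0.05 and a median of -0.19. Tagln2, the widespread relative of Tagln, was at -0.77 (SE 0.35, edgeR adjusted p = 0.457), with every pup library below every control library. That was so for 1 of 13 and for 9.6% of all genes tested. Cnn2 was at -0.59 (SE 0.35), close to Cnn1, and the non-muscle myosin Myh9 at 0.84 (SE 0.43). Every pup library lay above every control library in 2 of 13, Myh9 among them, beside 10.1% of all genes tested.

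Other cells of the vessel were counted in the same libraries, and 0 genes of any of these lists passed. Pericyte markers, 10 of 11 tested, had 2 positive and 1 negative value with an unadjusted p under 0.05, beside 6.31% and 4.67% of all genes tested. Their median was 0.017. Rgs5, a regulator of G protein signalling, was at 1.08 (SE 0.41), Anpep, an aminopeptidase, at 1.79 (SE 0.62) and Ndufa4l2, a mitochondrial protein, at -2.07 (SE 0.83), and the groups overlapped for each. The pericyte list summed to 97.2 to 133 CPM after control and 87.7 to 251 CPM after pup exposure.

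Endothelial markers, 12 of 12 tested, had 0 genes at an unadjusted p under 0.05 in either direction, a median of 0.40 and sums of 50.6 to 56.7 and 52.4 to 69.8 CPM. Flt1, a VEGF receptor, was at 0.97 (SE 0.56) and Egfl7, a secreted vessel factor, at -0.94 (SE 0.54). Fibroblast markers had a median of 0.19 over 8 genes, and Dpt, the matrix protein dermatopontin, was at 0.85 (SE 0.43). Elastic fibre genes had a median of 0.34 over 6 genes, with the fibrillin Fbn1 at 0.74 (SE 0.53), and both lists had 0 genes at an unadjusted p under 0.05.

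Red cell markers, 4 of 5 tested, all had a negative log2 fold change, with a median of -1.5, and 0 passed. The 2 with an unadjusted p under 0.05 were Hbb-bs, a beta chain of haemoglobin (-1.75, SE 0.55, edgeR adjusted p = 0.405), and Hba-a1, an alpha chain (-1.56, SE 0.52, edgeR adjusted p = 0.424). Of all genes tested 4.67% were lower at that unadjusted p. Without a filter on low counts Hbb-bs was called (edgeR adjusted p = 0.0306), and with DESeq2 it was not (0.0676). Hba-a1 has a near-identical copy, Hba-a2, with 0 to 3 counts, so its count is uncertain. The list summed to 205 to 591 CPM after control and 52.6 to 168 CPM after pup exposure, without overlap. The 9 smooth muscle genes summed to 2141 to 2866 and 1794 to 2177 CPM. These overlapped by a narrow margin only, between pup replicate 3 (2177) and control replicate 2 (2141). The 3 tested haemoglobin transcripts are short, at 628 to 703 bases, and the part of length in these values was not tested.

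The 5 genes outside all lists whose profile over the 6 libraries was closest to the mean of the 8 tested members were Anapc16, Gm6741, Sparcl1, Pcmt1 and Ubac1. Likeness was the root-mean-square difference of centred log2 (CPM + 1), which was 0.066 to 0.083 for them and had a median of 0.57 over all other tested genes. Gm6741 had 6 to 18 counts a library (0.425 to 1.10 CPM), near the added 1, which narrows its range, and its place was not tested with another pseudocount. The members themselves were farther from their own mean, from 0.27 for Myl9 and 0.28 for Acta2 to 0.81 for Tagln. Anapc16 is a subunit of the anaphase-promoting complex and Sparcl1 a secreted matrix protein found in vessels. Sparcl1 had 256, 224 and 206 CPM in the control and 179, 195 and 221 CPM in the pup libraries, and a log2 fold change of -0.20 (SE 0.36). These profiles rest on 6 libraries that share their scaling factors and are given as a description.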

How the data were processed

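Whole-number read counts per Ensembl gene were used as deposited by the authors, 1 column per library. Per the submitters' processing notes the build is GRCm38. How reads were aligned and counted is not given in the sources used here. GENCODE M21 named 36639 of 38561 gene IDs, and the other 1922 kept their ID. edgeR 4.0.16 (R 4.3.3) fitted an intercept and the group by quasi-likelihood to genes kept by filterByExpr (minimum count 10, minimum total 15), with TMM scaling and Benjamini-Hochberg adjustment over all 15498 genes tested at a threshold of 0.05. The script was tested on simulated data. CPM are counts scaled by TMM. Standard errors come from the F statistic, and lengths are those of the longest GENCODE transcript. No label says that libraries are separate animals, so a p-value here reflects library-to-library spread that may be technical. Libraries of a group differed by more than counting noise (chi-square divided by its degrees of freedom, 94.0 to 323). Exact permutation tests used scipy 1.17.1.

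The members, the 15 lists and the settings were chosen with earlier results of these data known. Named were all members, up to 3 genes of each list with the smallest p, genes at 0, and the 5 closest profiles, though not every gene the rule allows. The result of 1 list is not reported here. Omp, Vim and Bpifb1 were named outside the rule, Bpifb1 after its values were seen. Alternatives were RLE scaling, library totals, no filter or 1 CPM in 3 libraries, DESeq2 1.42.0, limma-voom (limma 3.58.1), a replicate block and leaving out single libraries. Chosen after seeing the data were a fit without the 50 most abundant genes and values relative to a length class. The patterns of highest library and of library order were also taken from values already seen.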

Additional observations from a re-analysis of the deposited data

How the results depend on the processing

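No member passed an adjusted p of 0.05 under any of the alternatives fitted. Over all genes, edgeR called 0 higher and 0 lower, unfiltered edgeR 61 and 59, DESeq2 50 and 77 and limma-voom 1 and 7, and every fit that left out a library called 0 and 0. The median log2 fold change of the 8 tested members, -0.44, ran from -0.75 to -0.15 with single libraries left out, and was -0.15 without control replicate 1 and -0.75 without pup replicate 3. Myh11 (-0.092) was at 0.14 with library totals only and ran from -0.32 to 0.38 with libraries left out, positive without control replicate 1 (0.38) and pup replicate 3 (0.14). Mylk ran from -0.049 to 0.38 with libraries left out and was at -0.27 relative to its length class. The other 6 members kept their sign in all 15 alternatives. The difference in the share of counts ran from -0.053 to 0.041 percentage points, positive without control replicate 1 (0.041) and pup replicate 1 (0.00099). Sparcl1 and Ubac1 were each at 0.039 with library totals only, and Ubac1 at 0.30 relative to its length class. Library totals alone moved the median of all genes from 0.030 to 0.31, and relative to that shift Myh11 was lower.

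With the replicate number as a block the median of the members was -0.47, Tagln was at 0.99 (edgeR adjusted p = 0.518), and 0 genes were called. Deviations from the group means correlated at -0.073, 0.18 and 0.12 for same-numbered libraries and at -0.32 to 0.18 for unlike-numbered ones. With 3 libraries per group this cannot decide whether the numbers pair the libraries. The pup libraries are deeper, so genes with few control counts, such as Adra1a and Des, are the least certain.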
